A study of Mus musculus with 2 samples.

Results

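The S100 genes encode small calcium-binding proteins, and the 10 described here were taken by symbol from the gene list of a single-cell RNA-Seq study of aged mouse muscle. They are S100a1, S100a4, S100a6, S100a8, S100a9, S100a10, S100a11, S100a13, S100a16 and S100b, of 18 symbols that start with S100 and of 32285 genes in the tables. All 10 were detected, with totals between 1387 UMIs for S100b and 240037 UMIs for S100a6 in the cells that passed the filters. A UMI is a molecular tag, so that 1 UMI stands for 1 captured mRNA molecule, read here from the 3′ end and therefore not scaled by transcript length.

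The study asked what retinoic acid signaling does in old muscle. Female C57Bl/6J mice of 24 months were injected 3 times within a week, in the hindlimb muscles, with the DMSO vehicle or with a cocktail of 3 compounds, which were all-trans retinoic acid, known as ATRA, together with CD3254 (an RXR-alpha agonist) and BMS961 (a RAR-gamma agonist). Quadriceps and gastrocnemius were digested, and the cells were sorted after incubation with propidium iodide, a viability stain. Live cells were collected, and the 2 mice of each treatment were pooled into 1 10x library. There is therefore 1 ATRA+agonist library and 1 DMSO vehicle library, the mice within a library cannot be told apart, and no test of treatment is possible. All intervals below are 95% intervals that cover the counting error of UMIs or cells only, not the difference between mice. The filters kept 7467 of 10444 barcodes (71.5%) with ATRA+agonist and 7517 of 17394 (43.2%) with vehicle, at a median of 4887 and 4959 UMIs per cell, and 12 of the kept barcodes occurred in both libraries. Kept cells were clustered without the S100 genes and the clusters were named from markers, which gave 16 classes, called after the cell type whose markers they carry (MuSC-like for muscle stem cells, FAP-like for fibro-adipogenic progenitors). Every marker of every class was at least 2-fold enriched in its class, with the exception of Fscn1 in dendritic-like cells. The 869 and 590 cells of 3 clusters stayed unnamed.

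S100 proteins carry a pair of EF-hand loops that bind calcium, pair up as dimers, and on binding calcium open a surface that grips other proteins. S100a10 is the exception, since its loops no longer bind calcium and it sits in a stable complex with annexin A2. Most members act inside the cell on the cytoskeleton, annexins, calcium pumps or channels. S100a8 and S100a9 form calprotectin, a heterodimer stored in the cytosol of neutrophils and monocytes that acts through Tlr4 and the receptor for advanced glycation end products (Ager) once released. S100b is a classical glial protein.

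In the mm10 genome (GRCm38, GENCODE M21 annotation) 9 of the 10 genes lie on chromosome 3, between positions 90511034 and 93564643, and S100b lies alone on chromosome 10 (chr10:76253853-76261159, plus strand). S100a1 (chr3:90511034-90514392, minus strand) and S100a13 (chr3:90514435-90524581, plus strand) start head to head. S100a8 (chr3:90668978-90670035, plus strand) and S100a9 (chr3:90692632-90695721, minus strand) are neighbors on opposite strands. S100a10 (chr3:93555080-93564643) and S100a11 (chr3:93520488-93526287) stand apart from the others on the same chromosome.

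The levels of the 10 genes split the tissue into neutrophil-like, glial, stromal, endothelial and other leukocyte classes, as the heat map of levels shows. Levels are counts per 1000000 UMIs of the class (CPM), given with ATRA+agonist first and vehicle second. The orders below leave out lymphatic endothelial-like cells (30 and 14 cells), which held 960 and 1004 CPM of S100a10 and 279 and 219 CPM of S100a16.

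**Figure D1:**
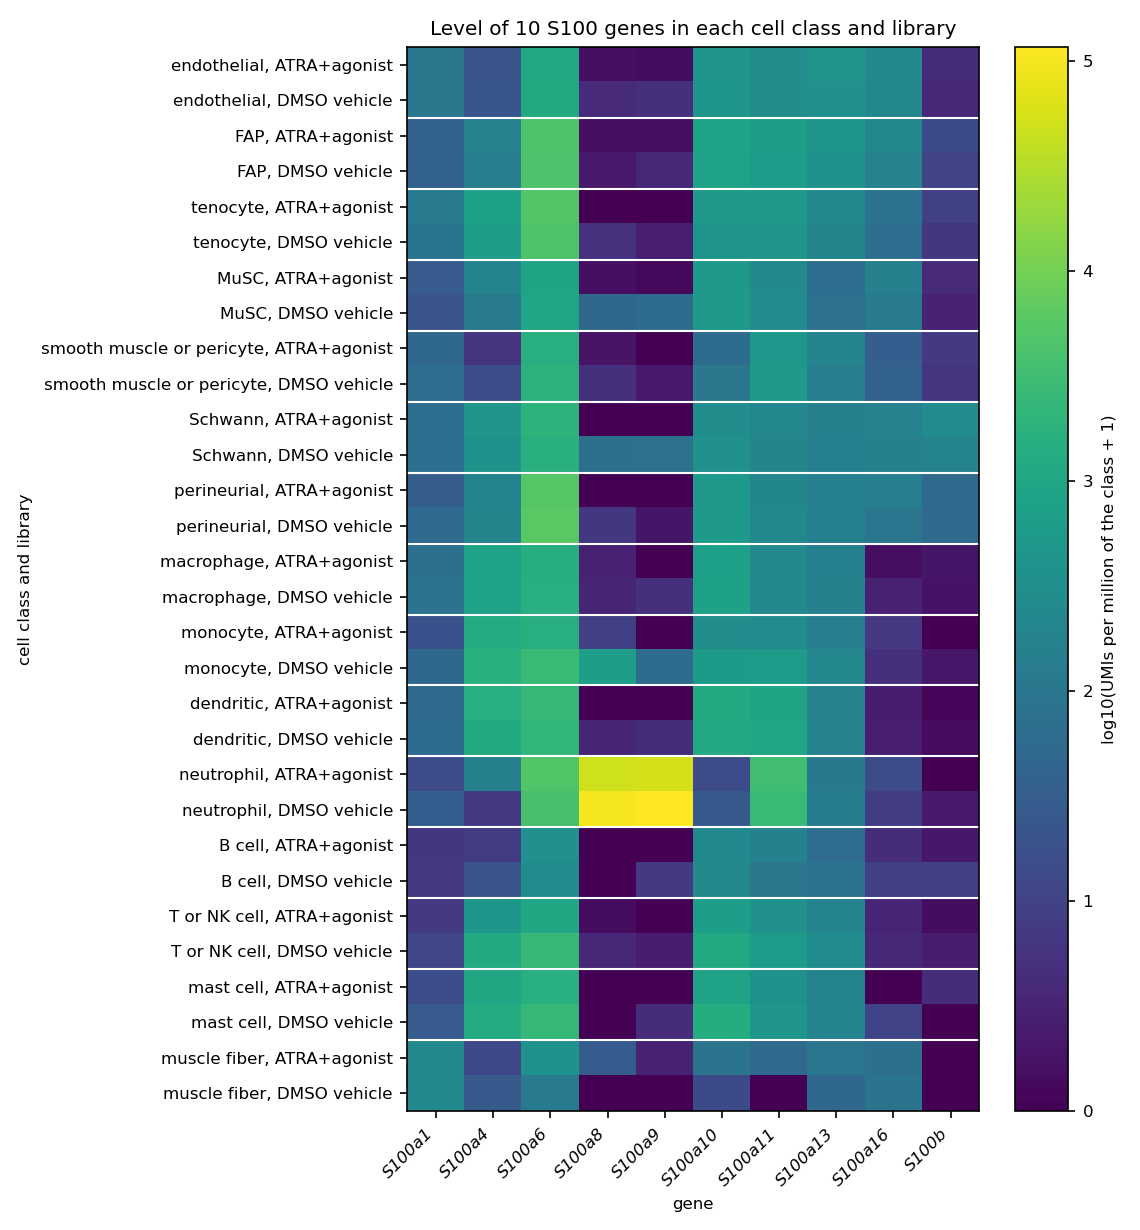
Level of 10 S100 genes (columns) in 15 cell classes (rows, 1 row per library; lymphatic endothelial-like and unnamed cells are left out) as log10 of CPM plus 1. S100a8 and S100a9 are bright in the neutrophil-like rows, with 51299.7 and 98122 CPM of S100a8, S100b stands out in the Schwann-like rows, and S100a16 is dark in all leukocyte rows.

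S100a6 (calcyclin, a partner of the calcyclin-binding protein Cacybp) was highest in perineurial-like cells, at 5421 and 5772 CPM, followed by tenocyte-like cells at 5065 and 4667 CPM and FAP-like cells at 4658 and 4490.1 CPM. Neutrophil-like cells held 4890.4 and 3842 CPM, and their order against FAP-like cells differed between the libraries. It was lowest in B cell-like cells, at 360.2 and 274 CPM, and in muscle fiber-like cells, at 381 and 114 CPM. S100a6 UMIs were found in 100% and 99.9% of FAP-like cells, against 20.6% and 10.7% of B cell-like cells, whose median depth was 5440 and 4519 UMIs against 10036 and 8103. Connective tissue and nerve sheath therefore stood at the top of its order in both libraries. Within the FAP-like class, cluster 9, led by Sema3c and Pi16, held more S100a6 (5859 and 5926 CPM) than cluster 1, led by Cxcl14 and Smoc2 (4453 and 4148 CPM), and cluster 5, led by Gdf10 and Fst (3940.4 and 4098 CPM).

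S100a10, the annexin A2 partner, was highest in dendritic-like cells at 1243 and 1155 CPM, mast-like cells at 819 and 1384 CPM and T or NK-like cells at 687 and 1192 CPM. The order of these 3 classes was not the same in both libraries. FAP-like cells were at 863 and 835 CPM and macrophage-like cells at 715 and 799 CPM, within the same range. Neutrophil-like cells were at the other end, with 2 and 19 UMIs in all, or 13.2 and 23.4 CPM. Its partner Anxa2 was also highest in dendritic-like cells among the classes with at least 50 cells, at 832 and 796 CPM, but was at 668 and 489 CPM in neutrophil-like cells. S100a10 UMIs were therefore scarce in neutrophil-like cells although those of Anxa2 were not.

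S100a11, which binds annexin A1, differed from S100a10 in neutrophil-like cells. Neutrophil-like cells held 3223 and 2546 CPM, with at least 1 UMI in 31 of 31 and 110 of 111 cells, dendritic-like cells held 908 and 963 CPM, and macrophage-like cells held 262 and 244 CPM. Among the stromal classes, FAP-like cells were at 705 and 635 CPM, tenocyte-like cells at 517 and 440 CPM and smooth muscle or pericyte-like cells at 501 and 548 CPM, and the order of the last 2 differed between the libraries. S100a11 thus joined S100a6 as a member that was abundant both in neutrophil-like and in stromal cells.

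S100a13, which takes part in the release of Fgf1 and Il1a, and S100a16, a widely expressed member, had the same 2 classes at the top of their orders. S100a13 was highest in FAP-like cells, at 459 and 392 CPM, and endothelial-like cells, at 419 and 360.0 CPM. T or NK-like cells, at 190 and 294 CPM, and tenocyte-like cells, at 227 and 197 CPM, followed in an order that differed between the libraries. S100a16 was highest in endothelial-like cells, at 247 and 217 CPM, and FAP-like cells, at 219 and 176 CPM, followed by Schwann-like cells at 172 and 164 CPM and MuSC-like cells at 159 and 120.4 CPM. The genes parted in leukocytes. S100a13 held 151 and 163 CPM in macrophage-like cells, whereas S100a16 had 2 and 5 UMIs there, in 2 of 324 and 5 of 288 cells, and at most 16 UMIs per library in any leukocyte class. Both were highest in cluster 9 of the FAP-like cells, with S100a13 at 696 and 626 CPM and S100a16 at 348 and 314 CPM.

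S100a4, a regulator of non-muscle myosin that is often used as a fibroblast or macrophage marker, was highest in monocyte-, dendritic- and mast-like cells here. Monocyte-like cells held 1311 and 1620.3 CPM, dendritic-like cells 1540 and 1281 CPM, mast-like cells 1077 and 1317 CPM, macrophage-like cells 875 and 866 CPM, and T or NK-like cells 490 and 1245 CPM. Tenocyte-like cells were the highest stromal class, at 788 and 656 CPM, and FAP-like cells were at 175 and 149 CPM. It was near its lowest in B cell-like cells (6.70 and 20.1 CPM), endothelial-like cells (19.3 and 21.6 CPM) and smooth muscle or pericyte-like cells (4.998 and 15.01 CPM). Of the endothelial-like clusters, cluster 19, in which all 6 arterial markers were enriched, was the exception at 157 and 195 CPM, against 1.82 and 2.33 CPM in cluster 0. In neutrophil-like cells S100a4 had 24 and 5 UMIs, and 18 of the 24 came from 1 cell.

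S100a1 is known as the muscle member, which acts on the ryanodine receptor and the sarcoplasmic calcium pump. Its level was highest in muscle fiber-like cells, at 265 and 241 CPM (117 and 19 UMIs in 242 and 38 cells). Tenocyte-like cells at 122 and 92.7 CPM and endothelial-like cells at 105 and 101 CPM followed, and did not keep one order. MuSC-like cells held 27.6 and 21.0 CPM, and B and T or NK-like cells between 5.77 and 11.3 CPM.

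S100b was the most restricted member outside the neutrophil pair. Schwann-like cells held 282 and 188 CPM, perineurial-like cells 55.6 and 53.9 CPM and FAP-like cells 12.7 and 9.73 CPM, and no other named class exceeded 9 CPM. UMIs of S100b were present in 55.0% and 53.3% of Schwann-like cells (median depth 5769.5 and 4635 UMIs), against 1.27% and 0.993% of endothelial-like cells (3445 and 3540.5 UMIs). Among the Schwann-like clusters the gene was highest in cluster 24.01, in which all 6 myelinating markers were enriched, at 710 and 354 CPM. It was lower in cluster 15, in which all 6 non-myelinating markers but also 4 of the 6 myelinating ones were enriched, at 169.9 and 171 CPM, and in cluster 17, led by Csmd3 and Col20a1, at 213 and 152 CPM. S100a4 and S100a6 separated these clusters in another way, as the bar chart of clusters shows. S100a4 was at 708 and 655 CPM in cluster 15, 586 and 536 CPM in cluster 24.01 and 103 and 146 CPM in cluster 17, and S100a6 was at 2562 and 2305, 3337 and 3277, and 657 and 661 CPM in the same order. In FAP-like cells the little S100b was uneven, with 28.4 and 17.7 CPM in cluster 5 and 4.24 and 3.95 CPM in cluster 9.

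**Figure D2:**
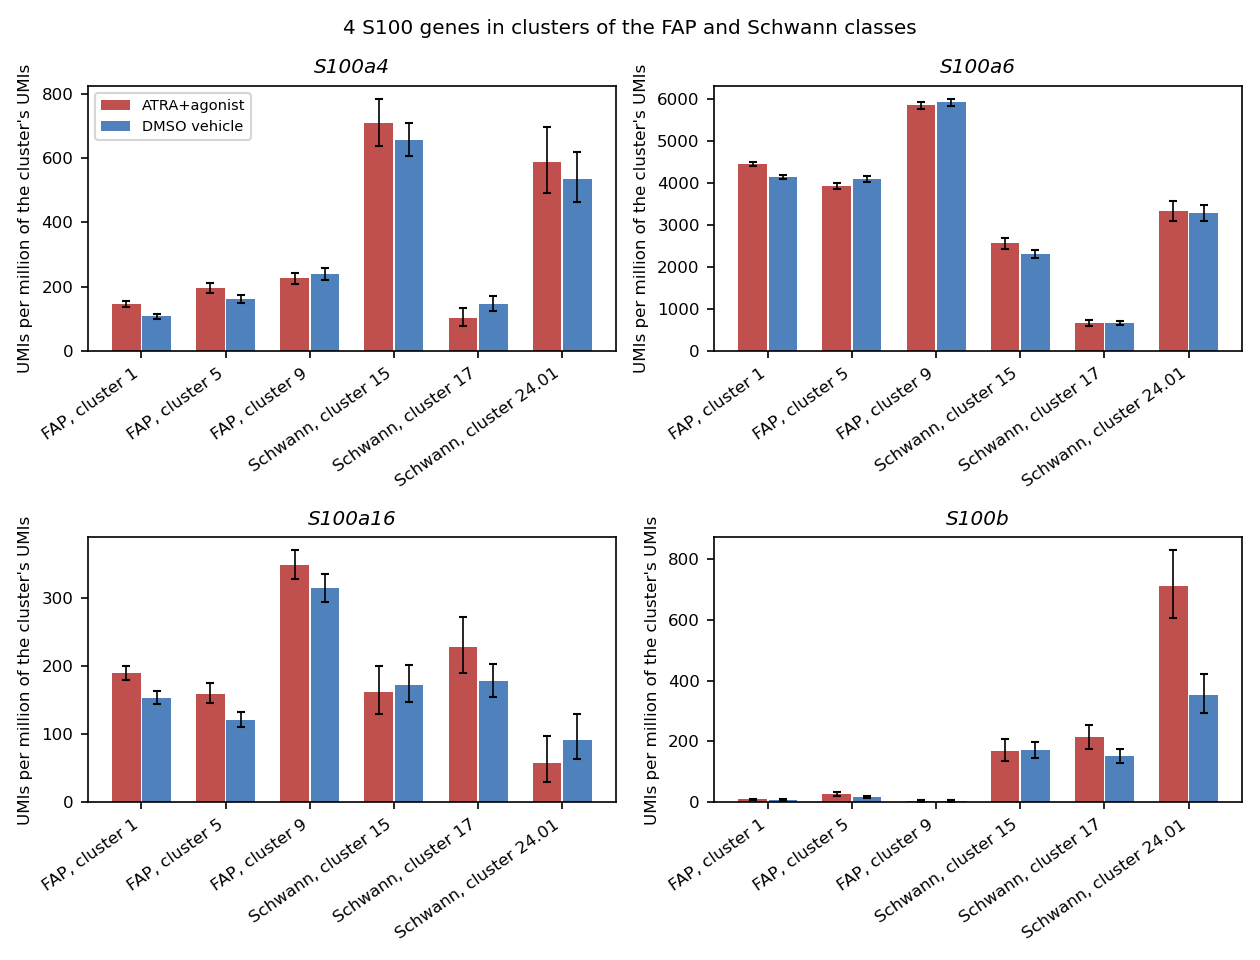
Level of S100a4, S100a6, S100a16 and S100b in CPM of the cluster (bars, ATRA+agonist red, vehicle blue, with exact 95% Poisson intervals) in the 3 clusters of FAP-like and the 3 of Schwann-like cells, each axis starting at 0. S100b is highest in cluster 24.01 in both libraries, at 710 and 354 CPM, and S100a4 and S100a6 are lowest among the Schwann-like clusters in cluster 17.

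S100a8 and S100a9 were almost wholly in neutrophil-like cells. These cells held 7752 of the 7793 kept S100a8 UMIs with ATRA+agonist and 79706 of 81364 with vehicle, and 8381 of 8394 and 94970 of 95636 of S100a9, although they were 0.415% and 1.48% of the kept cells (31 and 111 cells). The median neutrophil-like cell had 101 and 460 UMIs of S100a8 (highest 2897 and 4426) and 138 and 529 UMIs of S100a9 (highest 2562 and 5286). Together the genes took a median of 2.65% and 8.46% (S100a8) and 3.89% and 10.6% (S100a9) of a cell's UMIs. The pair was found together, with both genes in 29 of 31 and 108 of 111 neutrophil-like cells.

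The stretch of 250 bases before each start site of the pair is shown because these neighbors, which point in opposite directions, were found in the same cells. S100a4 is shown beside them as a member of the same gene cluster with another pattern. The sequences are from RefSeq on GRCm38.p6, read on the strand of the gene from 5′ to 3′ and ending at the base before the start site that RefSeq gives, which for S100a8 lies inside the gene bounds of the GENCODE annotation. Capitals mark the TATA box letters TATAAA on the gene's strand and the C/EBP letters TTNNGNAA on either strand.
S100a8, chr3:90668821-90669070, plus strand: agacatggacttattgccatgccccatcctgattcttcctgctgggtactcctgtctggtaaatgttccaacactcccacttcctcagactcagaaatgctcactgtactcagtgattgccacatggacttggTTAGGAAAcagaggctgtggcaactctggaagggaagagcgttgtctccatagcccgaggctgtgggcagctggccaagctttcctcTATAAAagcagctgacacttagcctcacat
S100a9, chr3:90695722-90695971, minus strand: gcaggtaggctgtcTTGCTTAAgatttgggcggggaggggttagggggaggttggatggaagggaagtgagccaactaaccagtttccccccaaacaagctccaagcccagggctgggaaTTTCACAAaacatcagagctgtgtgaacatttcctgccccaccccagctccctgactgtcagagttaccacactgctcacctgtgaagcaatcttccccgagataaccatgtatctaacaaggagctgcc
S100a4, chr3:90603520-90603769, plus strand: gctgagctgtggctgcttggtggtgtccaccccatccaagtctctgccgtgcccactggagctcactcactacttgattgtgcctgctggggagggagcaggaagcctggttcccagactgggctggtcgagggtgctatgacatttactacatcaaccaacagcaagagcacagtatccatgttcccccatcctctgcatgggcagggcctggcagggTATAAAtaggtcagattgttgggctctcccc
C/EBP proteins are regulators of granulocyte genes, and their letters were found in 2 of the 10 windows of members, those of S100a8 and S100a9. This is a common match, present in 36.8% of all 32817 windows of the same length. TATAAA was found in the S100a4 and S100a8 windows and in 7.597% of all windows. The AP-1 letters TGANTCA, on either strand, were found in the windows of S100a11 and S100a16 and in 6.75% of all windows. The nuclear receptor letters GGTCA, the unit of retinoic acid response elements, was found on either strand in windows of S100a4, S100a11 and S100a16 and in 35.2% of all windows. No window of a member held GGTCA as a direct repeat with 2, 3 or 6 bases between, spacings found in 0.165%, 0.067% and 0.0762% of all windows. S100a10 had no window in the table, and S100a16 had 2.

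Outside neutrophil-like cells, UMIs of the pair were rare. A UMI of either gene was found in 27 of 7436 other cells with ATRA+agonist (0.363%, exact binomial interval 0.239 to 0.528) and in 265 of 7406 with vehicle (3.58%, 3.17 to 4.03). With each cell thinned to 1000 UMIs, the shares were 0.0744% and 1.03%. The vehicle library also held more of the pair as a whole, with 1807 CPM of S100a8 over all kept cells against 170.3 CPM. The pair was also counted in barcodes with under 300 genes. There 96.4% and 96.6% of the UMIs were of hemoglobin genes, as in red blood cells, which should lack both members. Of these, 1 of 2428 barcodes with ATRA+agonist (0.0412%, 0.00104 to 0.229) and 142 of 7940 with vehicle (1.79%, 1.51 to 2.10) held a UMI of the pair, at median depths of 5675.5 and 6884.5 UMIs. A single vehicle barcode of 546 UMIs, with 0 of hemoglobin genes, held 166 of the 316 UMIs of the pair in that set. Both shares were below the 0.363% and 3.58% of the kept cells outside the neutrophil-like class. In vehicle endothelial-like cells the share was 2.57% (1.95 to 3.32), in FAP-like cells 3.16% (2.37 to 4.12) and in T or NK-like cells 2.75% (0.571 to 7.83), at median depths of 3540.5, 8103 and 5957 UMIs. No endothelial-like cell held more than 3 UMIs of the pair, and no FAP-like vehicle cell more than 2. The share was higher in vehicle macrophage-like cells, at 4.86% (2.68 to 8.02), and dendritic-like cells, at 7.61% (4.32 to 12.2), which had median depths of 8529 and 12617 UMIs and at most 2 UMIs of the pair in a cell. None of these UMIs are read as expression, and their source was not tested. In B cell-like cells S100a8 was found in 0 of 659 and 0 of 84 cells. This allows shares of cells with a UMI of up to 0.455% and 3.57%, taken as 3 divided by the number of cells. It sets no limit on cells that express the gene, and S100a9 was found in 3 of the 84.

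The share of S100a8 in the pair's UMIs was compared between classes. Whether UMIs outside neutrophil-like cells came from free RNA was not tested. S100a8 made up 48.1% (47.3 to 48.8) and 45.6% (45.4 to 45.9) of the pair's UMIs in neutrophil-like cells. In vehicle endothelial-like cells it made up 46.8% (34.0 to 59.9) of 62 UMIs, an interval that includes the neutrophil value, and in FAP-like cells 32.1% (19.9 to 46.3) of 53 UMIs. The share was 72.2% (46.5 to 90.3) in vehicle tenocyte-like cells, from 18 UMIs, and this interval lies just above the vehicle neutrophil value. In vehicle monocyte-like cells S100a8 made up 92.1% (90.5 to 93.5) of 1278 UMIs, and this interval lies far above the neutrophil value. Of the 156 vehicle monocyte-like cells, 39 had S100a8 alone, 8 had both genes and 1 had S100a9 alone. The richest of them held 392 and 71 UMIs, and 863 UMIs of other neutrophil genes, a list that includes the monocyte marker Chil3. The pair was at 731 CPM in the class with this barcode and at 466 CPM without its UMIs of the pair. The 39 cells held 465 of the 1177 S100a8 UMIs of the class and the 8 cells the other 712. The scatter of single cells shows these cells along the S100a8 axis.

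**Figure D3:**
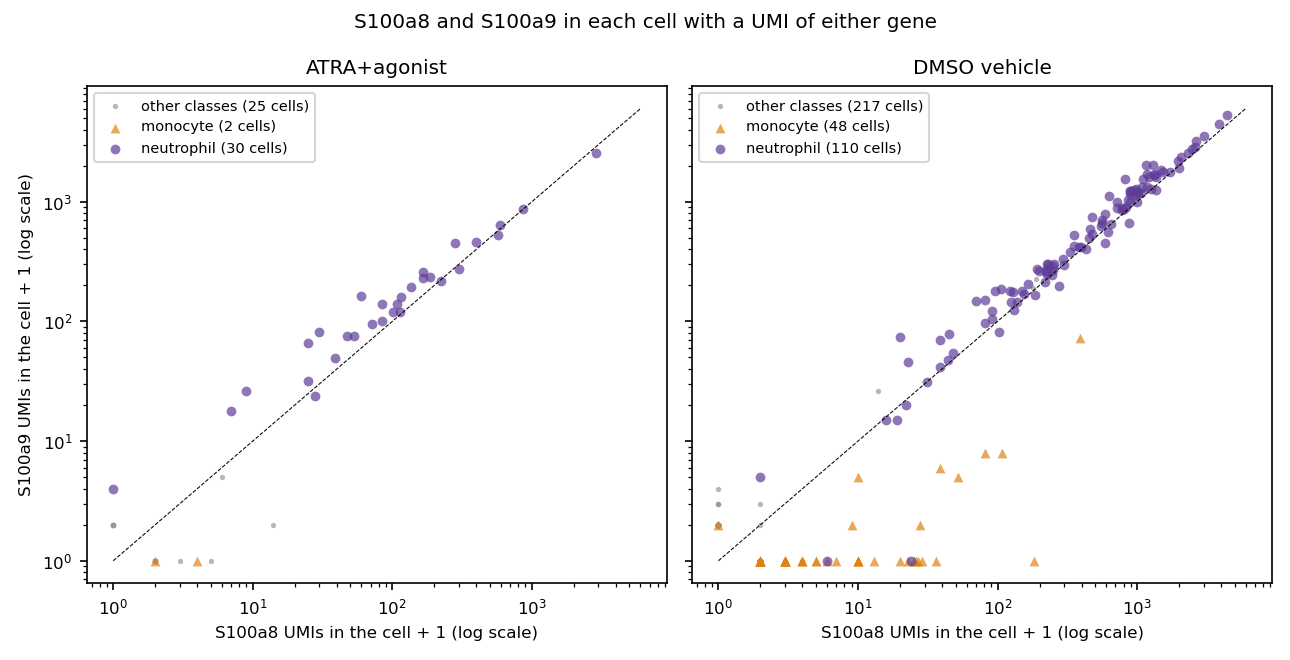
UMIs of S100a8 (x axis) and S100a9 (y axis), each plus 1 on a log scale, in each kept cell with a UMI of either gene, with ATRA+agonist on the left and vehicle on the right. The dashed line marks equal values. Neutrophil-like cells (purple, 30 and 110) lie along the line up to 4426 and 5286 UMIs. Most of the 48 vehicle monocyte-like cells (orange triangles) lie below it, and 23 of the 48 hold 5 or more UMIs of the pair.

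Single barcodes of other classes carried a neutrophil-like amount of the pair. In vehicle MuSC-like cells, 413 of the 431 UMIs of the pair came from 1 barcode, with 187 of S100a8, 226 of S100a9 and 86 UMIs of other neutrophil genes. In vehicle Schwann-like cells, 367 of 382 came from 1 barcode, with 179, 188 and 131 in the same order. Without these barcodes, MuSC-like cells held 1.74 and 2.73 CPM and Schwann-like cells 2.04 and 4.08 CPM, against 3.29 and 3.75 CPM in endothelial-like cells. A simulated doublet search removed the Schwann-like barcode and left the MuSC-like one. The same search also removed 28 of 31 and 101 of 111 neutrophil-like cells. Whether either barcode was a doublet was not tested further.

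To determine how the members compared between the treatments, UMIs were summed over the cells of a class in each library. The ratio was taken for the 9 classes with at least 100 cells in each library and for members with at least 50 UMIs over both libraries, which left 65 pairs of a member and a class. Of these, 2 were at least 1.5-fold higher with ATRA+agonist, S100a4 in MuSC-like cells and S100b in Schwann-like cells, and 10 were at least 1.5-fold lower. The lower pairs were S100a4, S100a6, S100a10, S100a11 and S100a13 in T or NK-like cells, S100a10 in smooth muscle or pericyte-like cells, and S100a8 and S100a9 in MuSC-like and Schwann-like cells, the last 4 of which rest on the single vehicle barcodes above. The plot of ratios shows 8 members in the 9 classes.

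**Figure D4:**
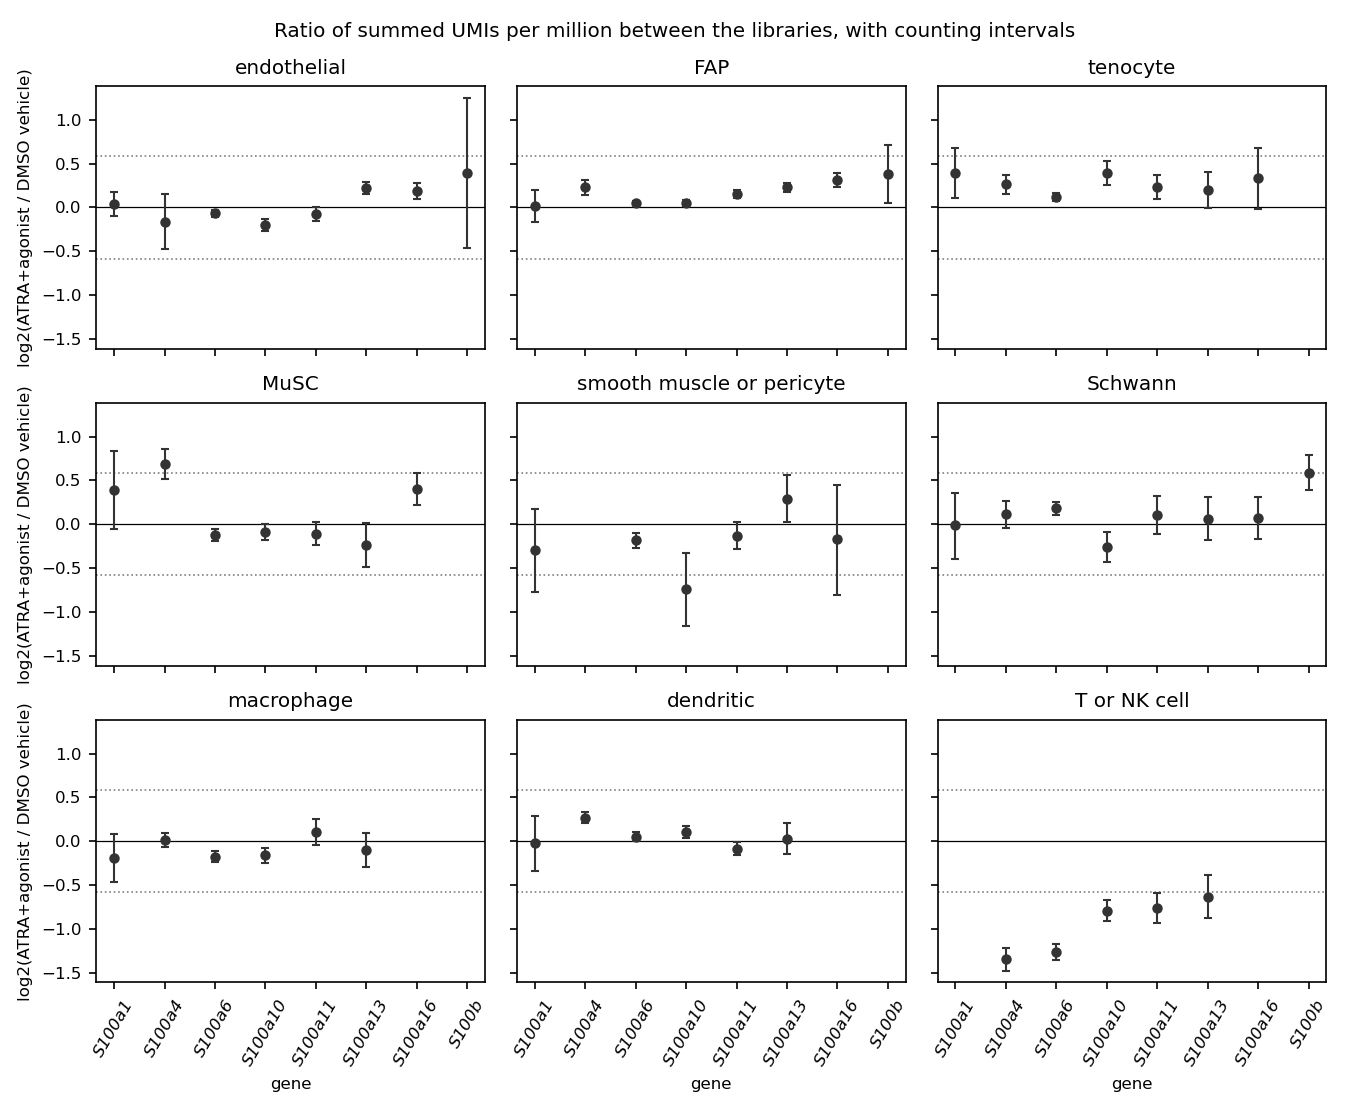
Log2 ratio of ATRA+agonist to vehicle CPM (points) with exact 95% intervals for counting error (lines) for 8 members in 9 cell classes, for pairs with at least 50 UMIs. Dotted lines mark 1.5-fold. T or NK-like cells hold 5 members below the lower line, from -1.35 for S100a4 to -0.63 for S100a13, and most other points lie between the lines.

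In T or NK-like cells (305 and 109 cells), all 5 members with enough UMIs were lower with ATRA+agonist, with a median log2 ratio of -0.79 against 0.01 over the 6355 genes compared in this class. In this class 9.32% of genes were at least 1.5-fold lower and 10.4% at least 1.5-fold higher, and the sum of both shares was the largest of the 9 classes. S100a4 was at 490 and 1245 CPM, a log2 ratio of -1.35 (-1.48 to -1.22). S100a6 was at 1041 and 2507 CPM, a log2 ratio of -1.27 (-1.36 to -1.18). S100a4 UMIs were found in 41.0% and 74.3% of the cells at median depths of 6150 and 5957 UMIs, against 2.73% and 4.76% of B cell-like cells, and in 21.2% and 48.6% after thinning to 1000 UMIs. S100a10, at 687 and 1192 CPM, and S100a11, at 373 and 632 CPM, had log2 ratios of -0.79 (-0.92 to -0.67) and -0.76 (-0.93 to -0.59). S100a13, at 190 and 294 CPM, had a log2 ratio of -0.63 (-0.88 to -0.38), which was -0.21 in thinned cells.

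The makeup of the T or NK-like class was not the same in the libraries. Of 5 genes of recirculating T cells, 4 were higher with ATRA+agonist, with Ccr7, a lymph node homing receptor, at 114 and 11.3 CPM and the transcription factor Lef1 at 287 and 69.0 CPM. All 6 genes of effector or resident lymphocytes were lower, with the chemokine Ccl5 at 4227 and 9712 CPM and the collagen-binding integrin Itga1 at 20.3 and 66.2 CPM. These lists were chosen after the values of the class had been seen. The T cell receptor genes Cd3e, at 400.1 and 390 CPM, and Trac, at 321 and 314 CPM, differed little, and of the B cell markers Ighm was at 79.2 and 38.0 CPM while Fcmr, Iglc2 and Mzb1 were at 0 in both libraries. The part of this makeup in the S100 ratios of the class was not tested as such.

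Values were also taken in subsets of the class split by Cd3 genes and by Ccr7 or Lef1, a split chosen after the data were seen. In cells with a Cd3d, Cd3e or Cd3g UMI and a Ccr7 or Lef1 UMI (129 and 22 cells), S100a4 was at 187 and 1004 CPM, a log2 ratio of -2.42 (-2.74 to -2.11), and S100a6 at 593 and 1758 CPM. In cells with a Cd3 UMI and neither of the other genes (144 and 70 cells), S100a4 was at 666 and 1402 CPM, a log2 ratio of -1.07 (-1.24 to -0.91), and S100a6 at 1319.6 and 2863.5 CPM. All 5 members were lower with ATRA+agonist in both subsets, although S100a11 in the second, at 507 and 696 CPM, was less than 1.5-fold lower. In the few cells without a Cd3 UMI (32 and 17 cells), S100a4 was at 971 and 898 CPM (log2 0.11, -0.25 to 0.49) and S100a10 at 1006 and 766 CPM (log2 0.39, 0.01 to 0.80). S100a13 was higher there, at 365 and 219 CPM (log2 0.74, 0.03 to 1.51). S100a6, at 1688 and 2080.5 CPM (log2 -0.30, -0.55 to -0.05), and S100a11, at 396 and 646 CPM (log2 -0.71, -1.18 to -0.22), were lower there. Cells with a Cd3 UMI and a Ccr7 or Lef1 UMI made up 42.3% and 20.2% of the class.

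**Figure D5:**
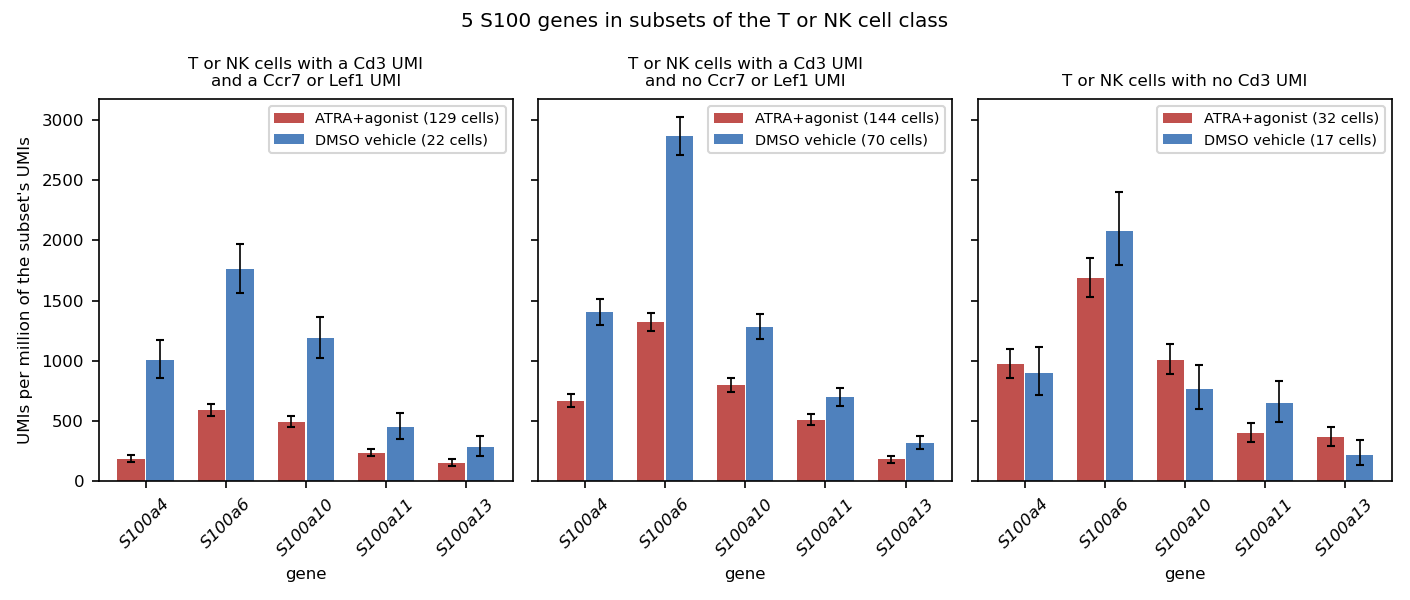
Level of 5 S100 genes in CPM of the subset (bars from 0, ATRA+agonist red, vehicle blue, with exact 95% Poisson intervals) in 3 subsets of the T or NK-like class, split by UMIs of Cd3 genes and of Ccr7 or Lef1. S100a4 is lower with ATRA+agonist in both subsets with a Cd3 UMI, at 187 against 1004 and 666 against 1402 CPM, and close in cells without one, at 971 against 898 CPM.

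Some genes of known S100 partners were lower in the same class. Of 26 annexins and intracellular S100 targets, 18 were compared there, and 7 were at least 1.5-fold lower and none higher, with a median log2 ratio of -0.52. Of all 6355 genes compared in the class, 9.32% were lower and 10.4% higher by that fold. Anxa2, the S100a10 partner, was at 187 and 377 CPM, the S100a11 partner Anxa1 was at 42.9 and 95.8 CPM, the scaffold Ahnak, which binds the S100a10 and annexin A2 complex, was at 332 and 725 CPM, and the intermediate filament gene Vim was at 503 and 1084 CPM. The genes of 8 other small EF-hand proteins were all within 1.5-fold, with a median of 0.17. In the other 8 classes at most 2 annexins or targets were past 1.5-fold in either direction. Of all genes compared in those classes, 3.12% to 6.32% were higher and 3.85% to 9.0% lower. The annexins or targets past the fold included Tpm1 in MuSC-like (101 and 62.0 CPM) and dendritic-like cells (72.2 and 41.6 CPM) and the calcium pump gene Atp2a1 in MuSC-like cells (22.5 and 10.4 CPM). In endothelial-like cells they were Pygm (42.4 and 27.8 CPM) and Anxa1 (23.4 and 35.3 CPM). Of the EF-hand list, Rcn1 was at 13.05 and 22.9 CPM in endothelial-like and 52.3 and 33.9 CPM in tenocyte-like cells. Of the neutrophil list, G0s2 was at 83.9 and 32.6 CPM in MuSC-like and 378 and 216 CPM in Schwann-like cells, Hdc at 7.19 and 20.8 CPM in endothelial-like cells and Lcn2 at 2.72 and 6.20 CPM in FAP-like cells.

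In MuSC-like cells (415 and 536 cells) S100a4 was at 192 and 119 CPM, a log2 ratio of 0.69 (0.52 to 0.86). It was found in 26.7% and 19.6% of the cells, at median depths of 7432 and 6541.5 UMIs, against 2.73% and 4.76% of B cell-like cells, and in 11.2% and 6.16% after thinning. The 642 and 483 UMIs did not come from 1 cell, since the log2 ratio was 0.71 without the richest cell of each library. Nearly all lay in cluster 4, at 206 and 123 CPM, while cluster 26 (62 and 42 cells) held 0 and 1 UMI. Of the 9369 genes compared, 6.14% were at least 1.5-fold higher and 4.78% at least 1.5-fold lower. Of the other members, S100a16 was at 159 and 120.4 CPM (log2 0.40, 0.22 to 0.58), and S100a6, at 914 and 996 CPM, S100a10, at 516 and 549 CPM, S100a11, at 253 and 272 CPM, and S100a13, at 65.3 and 76.9 CPM, were all slightly lower. The muscle stem cell class thus differed between libraries in 1 member by more than 1.5-fold, once the pair of neutrophil genes is set aside.

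In Schwann-like cells (222 and 469 cells) S100b was at 282 and 188 CPM, a log2 ratio of 0.59 (0.39 to 0.79), which is at the edge of the 1.5-fold limit. It was below the limit under 6 of 12 other settings, with a log2 ratio of 0.53 without the richest cell of each library, 0.12 after doublet removal and 0.11 in thinned cells, and the share of cells with a UMI was 19.5% and 19.3% after thinning. The difference was greatest in the myelinating cluster 24.01, at 710 and 354 CPM in 39 and 71 cells, while cluster 15 was at 169.9 and 171 CPM. Of the 8555 genes compared, 4.85% were at least 1.5-fold higher and 7.03% at least 1.5-fold lower. The other members apart from the neutrophil pair were within 1.5-fold, between -0.26 for S100a10 (309 and 369 CPM) and 0.18 for S100a6 (1889 and 1665 CPM).

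In smooth muscle or pericyte-like cells (258 and 357 cells) S100a10 was at 59.97 and 100.1 CPM, from 72 and 160 UMIs, a log2 ratio of -0.74 (-1.16 to -0.33). It was found in 13.6% and 20.2% of the cells, at median depths of 4132 and 3997 UMIs, against 6.45% and 5.41% of neutrophil-like cells at 3595 and 5289 UMIs, and the log2 ratio was -0.32 when cells of over 5000 genes were kept. In this class 5.32% of 7439 genes were at least 1.5-fold higher and 6.75% at least 1.5-fold lower. S100a11, at 501 and 548 CPM, S100a6, at 1571 and 1786 CPM, and S100a13, at 183 and 149 CPM, were within the limit.

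No member passed 1.5-fold in the other 5 classes. In endothelial-like cells 8 members were compared, with a median log2 ratio of -0.01 against 0.09 over 11567 genes, of which 6.32% were higher and 4.09% lower by at least 1.5-fold. Different clusters made up this class, since 1438 of 2129 ATRA+agonist cells were in cluster 0 and 1013 of 2216 vehicle cells were in cluster 2, which is led by genes induced by interferon such as Gbp4 and Ifit2. S100a13 was higher with ATRA+agonist in 6 of 6 endothelial-like clusters, with class levels of 419 and 360.0 CPM (log2 0.22, 0.15 to 0.29). The clusters come from the same 2 libraries and are not repeats, and such counts were not made for all genes. In FAP-like cells 8 members had a median of 0.19, and 3.12% and 6.55% of 13219 genes were higher and lower. S100a11, S100a13, S100a16 and S100b were each higher with ATRA+agonist in 3 of 3 FAP-like clusters, by less than 1.5-fold over the class. S100a16 was at 219 and 176 CPM (log2 0.31, 0.23 to 0.39). S100a1 and S100a4 were each higher in 2 of 3 of these clusters, and S100a6 and S100a10 each lower in 2 of 3. In tenocyte-like cells 7 members had a median of 0.26, all of them above 0, from 0.12 for S100a6 to 0.39 for S100a1 and S100a10, and 5.19% and 9.0% of 8652 genes were higher and lower. In macrophage-like cells 6 members had a median of -0.13, with S100a4 at 875 and 866 CPM, and 5.29% and 3.85% of 8187 genes were higher and lower. In dendritic-like cells 6 members had a median of 0.04, with S100a4 furthest from 0 at 1540 and 1281 CPM (log2 0.27, 0.20 to 0.33), and 5.62% and 5.07% of 8168 genes were higher and lower.

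Classes with fewer cells are described without a call. In neutrophil-like cells (31 and 111 cells) S100a8 was at 51299.7 and 98122 CPM and S100a9 at 55462 and 116913 CPM, log2 ratios of -0.94 and -1.08. The richest of the 31 cells held 2897 of 7752 S100a8 UMIs, and without the richest cell of each library both ratios were -1.34. Of 17 neutrophil granule and cytosol genes compared, 9 were lower and 4 higher by at least 1.5-fold, beside 14.5% and 30.5% of 2668 genes. Camp, a cathelicidin, was at 6313 and 26804 CPM, lactoferrin (Ltf) at 1072 and 4837 CPM, Lcn2 at 2932 and 9181 CPM, the surface marker Ly6g at 132 and 458 CPM and Stfa2l1 at 860.3 and 263 CPM. The interleukin gene Il1b was at 3454 and 1153 CPM and the receptor gene Csf3r at 1271 and 502 CPM, while Retnlg was at 7094 and 10267 CPM and Mmp9 at 847 and 966 CPM. In the sums S100a6, at 4890.4 and 3842 CPM, and S100a11, at 3223 and 2546 CPM, were higher, unlike the pair. In the median cell S100a6 took 0.416% and 0.495% of the UMIs, the other direction, and S100a11 0.325% and 0.293%. The CPM of these genes also depends on the large share that the pair takes of the class.

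In monocyte-like cells (64 and 156 cells) S100a8 had 4 UMIs in 2 cells against 1177 UMIs in 47 cells, or 8.07 and 673 CPM. S100a9 had 0 against 101 UMIs, where 0 of 64 cells allows a share of cells with a UMI of up to 4.69%, taken as 3 divided by the number of cells. A single vehicle barcode held 392 of the 1177 and 71 of the 101 UMIs. S100a6 was at 1589 and 2581 CPM, S100a10 at 304 and 575 CPM, S100a11 at 296 and 625 CPM and S100a4 at 1311 and 1620.3 CPM. The class itself differed, since Vcan, at 56.5 and 338 CPM, Chil3, at 619 and 1465 CPM, and Ly6c2, at 849 and 1327 CPM, which mark classical monocytes, were lower, and Treml4, at 276 and 156 CPM, and Ear2, at 335 and 119 CPM, which mark non-classical ones, were higher. Among cells with a Ly6c2 UMI (28 and 97 cells), S100a4 was at 1839 and 1953 CPM, S100a6 at 2407 and 3067 CPM, S100a10 at 542 and 705 CPM and S100a11 at 447 and 743 CPM. S100a8 had 4 against 1166 UMIs and a UMI in 7.14% and 46.4% of the cells, and B cell-like cells had none.

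The receptors of released S100 proteins were measured beside them. Ager UMIs were almost absent, at most 9 per class and library. Tlr4, the other receptor of the S100a8 and S100a9 pair, was highest in FAP-like cells at 113 and 144 CPM, with 48.6 and 59.1 CPM in MuSC-like and 48.6 and 62.1 CPM in macrophage-like cells. The scavenger receptor Cd36, at 13.8 and 78.6 CPM in Schwann-like cells, had the widest ratio among the receptor list in the 9 compared classes (log2 -2.51, -3.29 to -1.81). Alcam was lower with ATRA+agonist in FAP-like cells (6.92 and 15.6 CPM) and MuSC-like cells (37.5 and 61.8 CPM). FAP-like cells also held less Cd36 (12.2 and 21.2 CPM) and more Fgf1 (24.95 and 16.1 CPM), dendritic-like cells more Cd69 (35.4 and 12.0 CPM), and smooth muscle or pericyte-like cells less Sdc4 (44.98 and 86.9 CPM).

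Of the 8 other S100 symbols, 4 had at least 50 UMIs in the kept cells. S100a5 was almost wholly in tenocyte-like cells, with 44 and 163 of its 222 UMIs there (33.9 and 52.7 CPM). S100g, the intestinal calbindin, was in tenocyte-like cells, with 8 and 142 UMIs (6.16 and 45.9 CPM, log2 -2.90, -4.14 to -1.88), and FAP-like cells, with 6 and 51 UMIs. A UMI of S100g was found in 4 of 166 and 12 of 511 tenocyte-like cells (2.41% and 2.35%). The S100g UMIs came from few cells, since the richest vehicle tenocyte-like cell held 45 and the 510 others 97. S100pbp, which encodes a binding protein of another S100 protein and is no S100 gene itself, was spread over all classes with 3605 UMIs, and S100a14 had 60.

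Over the 26 sums of a class and library with at least 50 cells, the genes with the pattern most like each member were found by Pearson correlation of log2(CPM + 10) among 13938 genes. These sums share libraries, so the values are descriptions. S100a8 was nearest to S100a9 (r = 0.96), Wfdc21 and Mmp8, and S100a9 to Retnlg (0.98), Abca13 and S100a8. S100b was nearest to the Schwann cell gene Cdh19 (0.98), Nkain4 and Kank4, and S100a16 to Prkd1 (0.97), Hspg2 and Nfib. The other 6 had looser neighbors. S100a4 was nearest to Metrnl (0.85), Ebp and Trps1, S100a1 to Commd9 (0.82), Bnip3 and Tmem256, S100a6 to Tmed3 (0.82), Slc25a24 and S1pr2, S100a11 to Sri (0.81), Slc35e1 and Gm6169, S100a10 to Eef1a1 (0.80), Calr and Lrrc59, and S100a13 to Cast (0.78), Usp18 and Hsd3b7. Apart from S100a8 and S100a9, no member had another member of the same genomic cluster among its 3 nearest genes.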

How the data were processed

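Cells of 2 10x libraries, 1 per treatment, were analysed. The deposited values are raw UMI counts per barcode and gene, obtained by the authors on the mm10 genome by means of Cell Ranger (version 7.2.0), and no normalization was applied to them before deposit. Counting UMIs removes PCR copies, and 3′ capture makes levels of different genes only roughly comparable.

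Barcodes with 300 to 5000 genes, under 20% mitochondrial UMIs and under 0.25% hemoglobin beta UMIs were kept, after the methods of the study. The 2000 most variable genes, with all S100 genes left out, gave 30 principal components, a graph of 20 nearest neighbors and Louvain clusters at resolution 0.8 (igraph 0.11.9, scikit-learn 1.9.0, scipy 1.17.1). Mitochondrial, ribosomal, hemoglobin and listed genes other than the neutrophil list were left out as well. If large enough, a cluster with at least 80% of the markers of 2 or more types enriched was clustered once more at resolution 0.4. A cluster was named where at least 3 markers of a type were 2-fold enriched, under further conditions. These included a minimum share of the type's markers enriched, no rival type among the 10 leading genes, and a leading marker in clusters of low depth. The UMIs of a class were summed per library and divided by the class total. Intervals are exact Poisson, exact binomial (Clopper-Pearson) or exact conditional ratio intervals, at 95%, and cover counting error only. With 1 library per treatment there is no test. A pair of member and class was compared with at least 100 cells in each library and 50 UMIs over both, and called at 1.5-fold. All members were named, and of each gene list in a compared class those past 1.5-fold with at least 100 UMIs, at most the 4 largest, and always Anxa2, Ager and Tlr4. Other S100 genes were named with at least 50 UMIs, and for a member the 3 genes of most similar pattern. The genes named in neutrophil-like and monocyte-like cells and the T cell genes were chosen after their values were seen. The ratio step was tested on simulated data.

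Doublet removal at 7.5% had been planned, but it took 28 of 31 and 101 of 111 neutrophil-like cells, so the values are given without it and its effect is among the alternatives. This change, the thresholds for naming clusters, and the splits of T or NK-like and monocyte-like cells were chosen after seeing the data. The members and lists were chosen with earlier results of these data known. A few marker genes are not reported here, and the split of T cells does not use them.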

Additional observations from a re-analysis of the deposited data

Results flagged for a closer look

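S100a4 stood on opposite sides in MuSC-like and T or NK-like cells, with log2 ratios of 0.69 and -1.35 for ATRA+agonist over vehicle. The difference between the classes was not tested, since each treatment is 1 library.

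Barcodes removed for their hemoglobin UMIs still held the neutrophil pair. With ATRA+agonist they held 305 UMIs of S100a8 and 360 UMIs of S100a9, all in 1 barcode, and with vehicle 6532 UMIs of S100a8 in 25 barcodes and 7753 UMIs of S100a9 in 39 barcodes. These are molecules that the cell filter took out of the comparison above. The removed barcodes, 357 with ATRA+agonist and 1725 with vehicle, held S100a8 at 155 and 716 CPM, against 170.3 and 1807 CPM in kept cells.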

How the results depend on the processing

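Of the 65 pairs, 2 were higher and 10 lower by at least 1.5-fold. The higher count was 1 after doublet removal, with no maximum of genes, when each cell was assigned from its own marker UMIs, in cells thinned to 1000 UMIs, with median-of-ratios scaling, and without the richest cell of each library, and 3 at a mitochondrial limit of 10% and at a minimum of 20 UMIs. The lower count was 4 in thinned cells, 6 without the richest cells and 16 at a minimum of 20 UMIs, and lay between 7 and 12 otherwise. The class with the highest level was the same for 5 of 10 members after doublet removal, which left no neutrophil-like class, and for 8 to 10 otherwise. The share of other cells with a UMI of S100a8 or S100a9 was 0.0744% and 1.03% in thinned cells. No log2 ratio of a called pair changed sign where both libraries held UMIs. S100a8 and S100a9 in Schwann-like cells had 0 UMIs with ATRA+agonist, so their ratios are bounds that could not change sign. These had a value under 9 and 11 of the alternatives. S100a4 stayed past 1.5-fold under all 12 alternatives in MuSC-like cells (0.59 to 0.84) and in T or NK-like cells (-1.42 to -1.25), whereas S100b in Schwann-like cells was past it under 6 of 12 and S100a10 in smooth muscle or pericyte-like cells under 9 of 12. No paired analysis was possible because each treatment has 1 library, and for the same reason no replicate could be left out. The number of cells limits the classes with few of them, such as the 31 neutrophil-like cells with ATRA+agonist.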
